A study of Sus scrofa with 15 samples.

Results

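Matrix metalloproteinases (MMPs), ADAMs, ADAMTS proteases, ADAMTS-like proteins and tissue inhibitors of metalloproteinases (TIMPs) were examined in sorted cells of the adult pig knee. Genes were chosen by symbol alone: MMP, ADAM, ADAMTS, ADAMTSL or TIMP followed by a number. The rule found 56 of 25322 entries, with 55 symbols, because ADAMTS1 was listed under the identifiers ENSSSCG00000012026 and ENSSSCG00000029488. These were 17 MMP, 15 ADAM, 16 ADAMTS, 4 ADAMTSL and 4 TIMP entries.

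The study compared chondrocytes of adult pig articular cartilage, sorted from digested tissue by surface BMPR1B, which binds bone morphogenetic proteins, and ITGA4, the integrin alpha 4 chain, with synovial cells negative for CD45 and CD31 and positive for CD146. The chondrocyte groups carried both proteins (ITGA4+BMPR1B+), ITGA4 alone (ITGA4+BMPR1B-), BMPR1B alone (ITGA4-BMPR1B+) or neither (ITGA4-BMPR1B-), each from pigs 2, 5 and 6, and the other group was CD146+ cells, sorted as pericytes, from pigs 3, 4 and 5. Each of the 15 libraries was 1 population of 1 pig, so only pig 5 was in both sets, no group was cultured or treated, and the ages of the pigs beyond adult were not given in the sources used here. Total RNA was sequenced, and all cells had passed through enzymatic digestion and sorting before extraction.

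MMPs are zinc enzymes, made as inactive precursors, that cleave collagens, proteoglycans and other matrix proteins. ADAMs are mostly membrane-bound sheddases that release the outer parts of receptors and ligands, and ADAMTS enzymes are secreted proteases that include the aggrecanases, which cut the main cartilage proteoglycan. ADAMTS-like proteins lack the protease domain, and TIMPs bind the active site of these enzymes and block them. In cartilage the balance of collagenases, aggrecanases and TIMPs is known for its part in matrix turnover and osteoarthritis.

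Every library had a total signal of 629194 or 629195, of which structural RNA took 43.9% to 96.2% and named messenger RNA 1.14% to 14.0%. Values below are therefore given on a messenger scale, which leaves out structural RNA and sets libraries equal by their median ratio over messenger genes, with a mean total of 1000000. Differences are in log2(value + 1), which understates the change of low genes, with standard errors and adjusted p-values from limma. Whether the signal was divided by gene length is not given, so levels were not ranked between genes. The depth in reads was not examined, although the paper states that its supplementary data hold read totals. The chondrocyte markers were high in the 12 chondrocyte libraries (summed level 28600 to 153322) and low in CD146+ cells (60.9 to 91.1). CD146+ libraries had the CD146 gene MCAM at 447 to 1233 against 1.048 to 16.8 in chondrocytes. They also held 12 endothelial markers at a summed level of 5108 to 8669 against 35.2 to 239 in chondrocytes, and PECAM1, which encodes CD31, at 579 to 1049 against 1.35 to 23.5. Of 9 pericyte marker entries tested by limma, 3 were called lower in chondrocytes than in CD146+ cells, 1 higher, and 5 were not called. RGS5 was at 10.8 to 104 in CD146+ cells and at 1.02 to 11.5 in chondrocytes, so the ranges overlapped. CSPG4 was lower in CD146+ cells, at 0.713 to 11.9, than in chondrocytes, at 529 to 2487. Comparisons with the CD146+ group below are thus with RNA that carries endothelial markers throughout, whose part in the results was not tested. In sorted bulk cells, fewer cells of a type and less RNA per cell cannot be told apart.

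Of the 56 entries, 27 had a value above 5 in at least 3 of the 15 libraries and were tested with all other genes past that filter, 11558 in all. These were 10 MMP, 5 ADAM, 8 ADAMTS, 2 ADAMTSL and 2 TIMP entries. Of the 27, 3 were above 5 in CD146+ libraries alone (ADAMTS7, ADAMTS9 and MMP15), 5 in chondrocyte libraries alone (MMP8, MMP13, MMP16, ADAMTS6 and ADAMTSL3) and 19 in both. The 8 entries that passed through 1 cell type alone had to differ to be tested, so their calls below are descriptions. ADAMTS4, among the 19, was above 5 in 5 libraries, of which the chondrocyte ones were ITGA4+BMPR1B+ (5.92) and ITGA4+BMPR1B- (16.8) of pig 2. It thus passed through its CD146+ libraries, and its call is a description too. MMP12 and ADAM33 were above 5 in a single CD146+ library each (5.45 in pig 5 and 8.57 in pig 3). They passed through chondrocyte libraries, and their differences are descriptions. The other 29 entries were not tested, and 13 of them never reached 1 in any library, while MMP9 and ADAM8 were high in single libraries. The heat map of all entries shows the few bright rows of MMP1, MMP2, MMP3, MMP14, ADAMTSL4 and TIMP1 against a largely dark background.

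**Figure D1:**
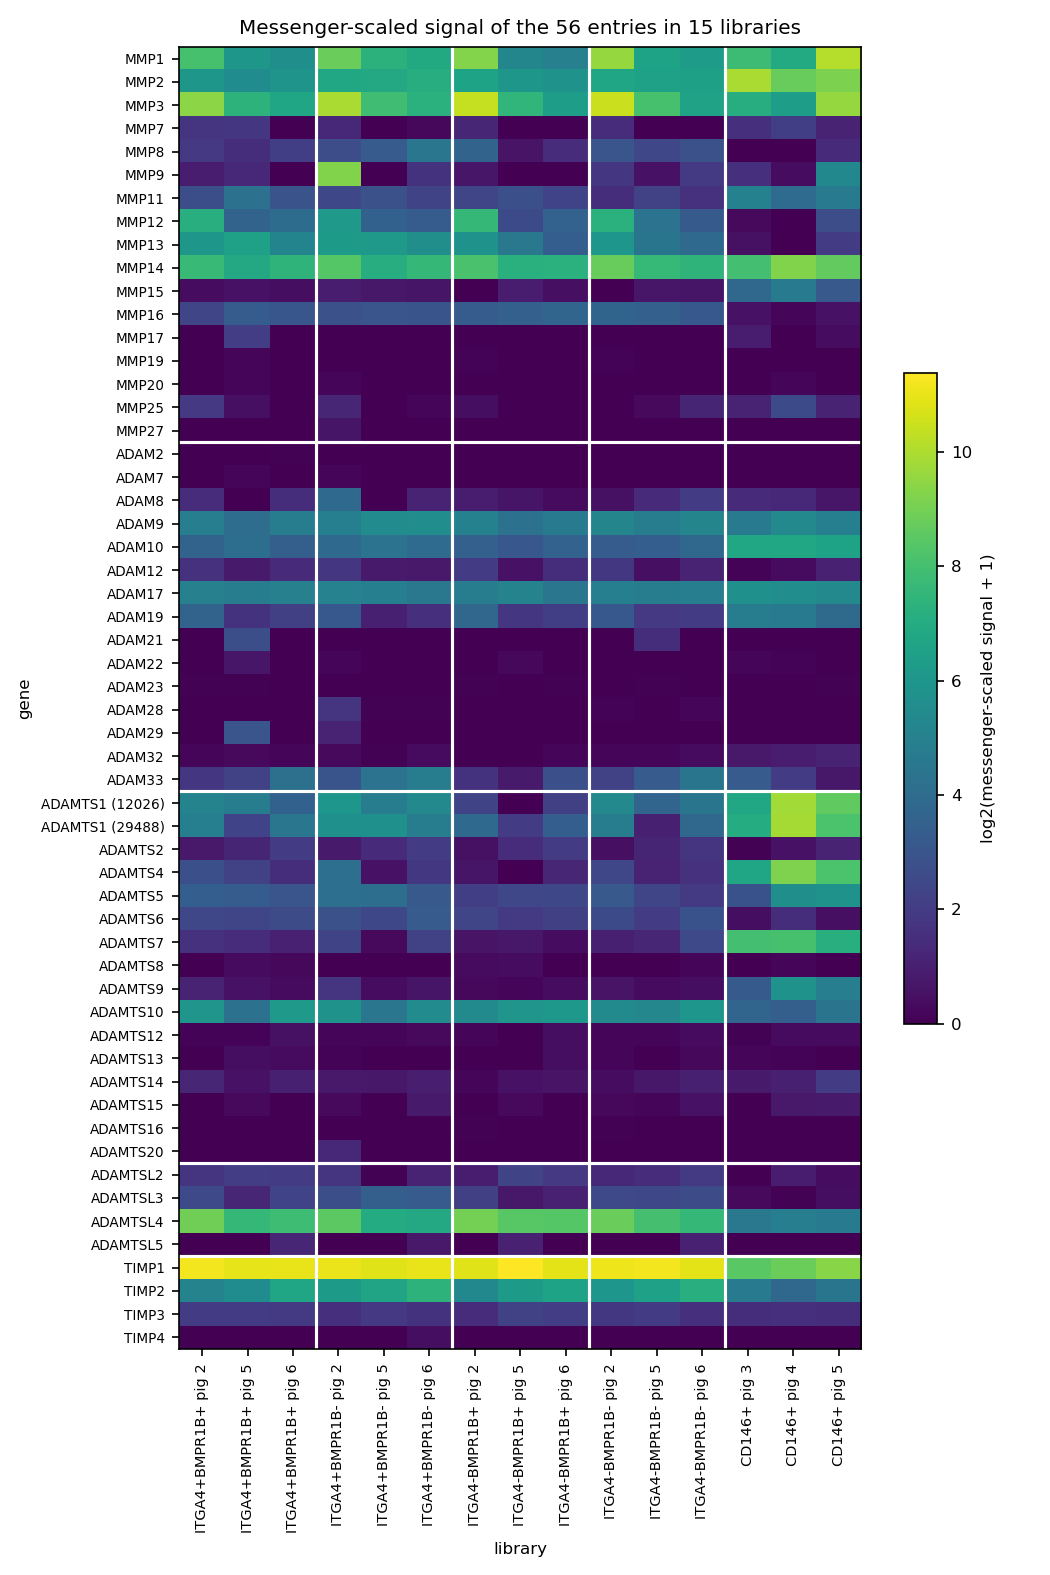
Heat map of the 56 entries (rows, by family and number, ADAMTS1 with the last digits of its identifier) in the 15 libraries (columns, by population and pig), coloured by log2(messenger-scaled signal + 1). TIMP1 is bright in all 12 chondrocyte columns, ADAMTS1, ADAMTS4 and ADAMTS7 are bright in the 3 CD146+ columns, and MMP9 is bright in 1 chondrocyte column.

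Every family but the ADAMs had entries called in chondrocytes against CD146+ cells in the higher direction, and every family but the TIMPs and ADAMTS-like proteins in the lower. Against CD146+ cells, chondrocytes had higher MMP13, MMP16, MMP8, ADAMTS6, ADAMTS10, ADAMTSL3, ADAMTSL4, TIMP1 and TIMP2. They had lower MMP2, MMP11, MMP15, ADAM10, ADAM17, ADAM19, ADAMTS4, ADAMTS7, ADAMTS9 and both ADAMTS1 entries. Thus 20 of the 27 entries tested were called at an adjusted p of 0.05, 9 higher and 11 lower. Among them were ADAMTS4 and the 8 that had passed the filter through 1 cell type alone. Of all 11558 genes, 32.5% were called, 16.4% higher and 16.2% lower. The median difference was -0.71 over the 27 entries and -0.01 over all genes. CD146+ libraries had a messenger share of 1.82% to 2.55% and those of chondrocytes 1.14% to 14.0%. With values as deposited 8 of 18 entries were called, and 691 of 7049 genes. The fit compared 3 chondrocyte pig means with 3 CD146+ libraries, and the plot of differences gives each entry with its standard error. In the alternative with the pig as a block over all 15 libraries, only pig 5 linked the cell types. Its differences from CD146+ cells thus rest on 1 CD146+ library, and are given below without tests.

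**Figure D2:**
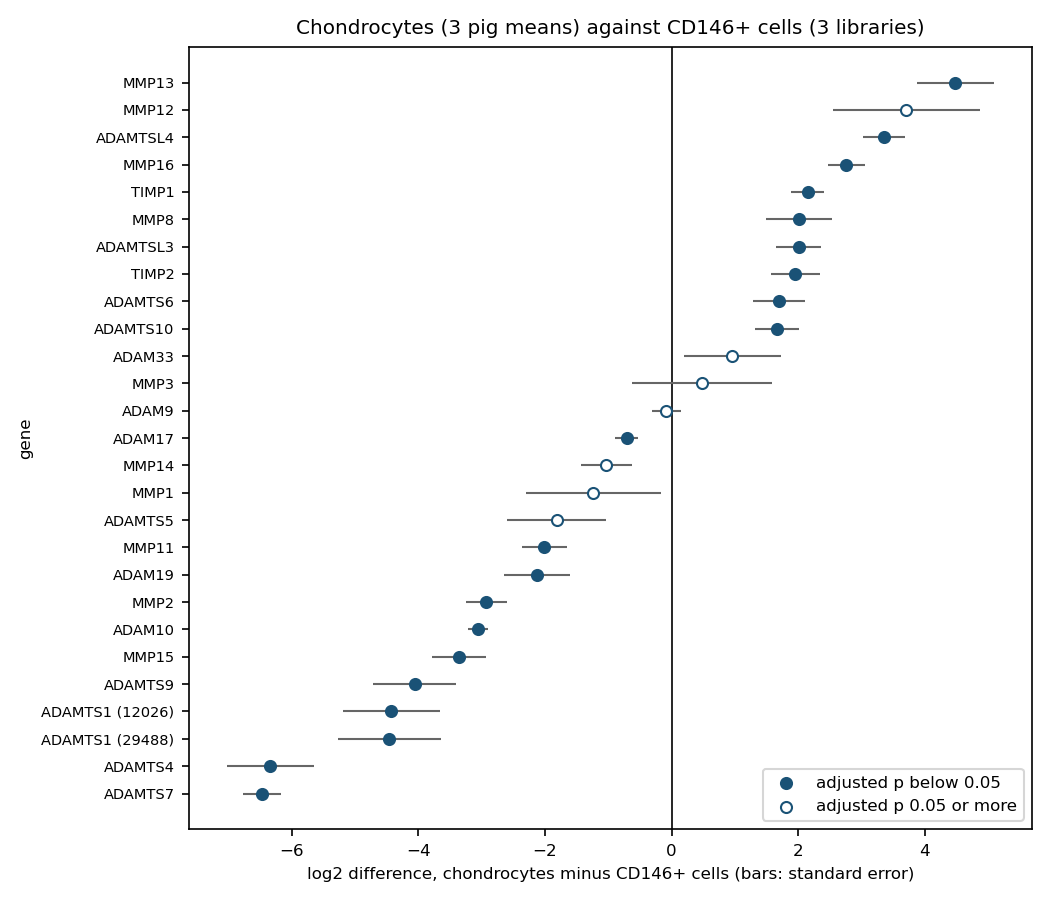
Difference between chondrocytes (3 pig means, each over 4 populations) and CD146+ cells (3 libraries) for the 27 entries tested, on the log2 scale (x axis), with bars for the standard error and filled points for an adjusted p below 0.05. The points run from -6.47 for ADAMTS7 to 4.48 for MMP13.

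Collagenases cut the triple helix of fibrillar collagen. Among them MMP13 and MMP8 passed the filter through chondrocyte libraries alone, so their calls are descriptions. MMP13 was called in every fit that left out 1 pig mean or library, and MMP1 was not called. MMP13, the enzyme with a preference for type II collagen, was at 9.46 to 89.5 in the 12 chondrocyte libraries (median 52.7), and at 0.442, 0 and 2.94 in the CD146+ libraries of pigs 3, 4 and 5. The groups did not overlap, and the difference was 4.48 ± 0.61 (SE, adjusted p = 0.00293), and 3.43 with the pig as a block. MMP8, known as neutrophil collagenase, was at 0.508 to 21.1 in chondrocytes (median 4.88) and at 0, 0 and 1.68 in CD146+ cells. Its groups overlapped, and its difference was 2.01 ± 0.53 (adjusted p = 0.0291). This call was lost in 4 of 6 fits that left out 1 pig mean or 1 CD146+ library. With the pig as a block over all 15 libraries the MMP8 difference was 0.52.

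MMP1, the interstitial collagenase, was high in both cell types and was not called. Its level was 30.1 to 776 in chondrocytes (median 109), and 223, 122.5 and 1119 in the CD146+ libraries of pigs 3, 4 and 5, so the ranges overlapped. The difference was -1.23 ± 1.07 (adjusted p = 0.414). With the pig as a block, where only pig 5 links the cell types, it was -3.83. In pig 5 itself, MMP1 was at 1119 in CD146+ cells and at 36.7 to 157 in the 4 chondrocyte populations.

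MMP3 (stromelysin 1), which degrades proteoglycans and can activate other MMP precursors, varied in the same libraries. It was at 82.5 to 1430.0 in chondrocytes (median 210.1) and at 137, 82.7 and 762 in the CD146+ libraries of pigs 3, 4 and 5. Its difference of 0.48 ± 1.10 (adjusted p = 0.77) turned to -1.87 with the pig as a block over all 15 libraries, so no direction was given for MMP3. MMP12, the macrophage metalloelastase, was at 4.95 to 191 in chondrocytes (median 13.4) and at 0.232, 0 and 5.45 in CD146+ cells. Its difference of 3.71 ± 1.17 missed the threshold (adjusted p = 0.0525), and was 4.55 (adjusted p = 0.037) without the CD146+ library of pig 5 and as low as 2.53 in the other left-out fits. With the pig as a block it was 0.83.

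Levels of MMP1, MMP3 and MMP12 differed by pig on the messenger scale, as the plot by pig shows. The 4 chondrocyte libraries of pig 2 held MMP1 at 270.0 to 776, and the 8 libraries of pigs 5 and 6 at 30.1 to 157. For MMP3 the ranges were 682 to 1430.0 in pig 2 and 82.5 to 267 in pigs 5 and 6, and for MMP12 they were 70.4 to 191 and 4.95 to 19.4. The pig 2 mean was 6.70 times that of the other pigs for MMP1, 6.88 times for MMP3 and 12.5 times for MMP12. MMP14 (1.94 times), ADAM19 (3.94 times) and ADAMTSL4 (2.02 times) were also above every library of the other pigs in pig 2. In total 6 of the 27 entries lay above all others in pig 2, against 4.78% of all genes, and 0 lay below, against 4.23%. For pig 5 the counts were 0 above (1.28% of all genes) and 0 below (0.684%). For pig 6 they were 0 above (1.76%) and 1 below, MMP3 (1.61%). Each pig is 1 animal, and these counts are descriptions. Pig 2 libraries also had a lower messenger share of the signal, 1.14% to 2.11%, than those of pigs 5 and 6, 7.003% to 14.0%. As deposited, MMP1 was at 3.86 to 5.93 in pig 2, within the range of the other pigs (1.56 to 12.9), and so not above them. The deposited MMP12 signal of pig 2 was 0.943 to 2.10 against 0.253 to 1.02 in the others, which overlap, and MMP3 was 9.76 to 13.0 against 4.28 to 19.8. ADAMTSL4 and MMP14 were as deposited lower in pig 2 than in every library of the other pigs, so that their order turned with the scale. ADAM19 was as deposited at 0.0551 to 0.162 in pig 2 and at 0.0843 to 0.223 in the others, with a lower mean in pig 2 (0.108) than in pigs 5 and 6 (0.125 and 0.167).

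**Figure D3:**
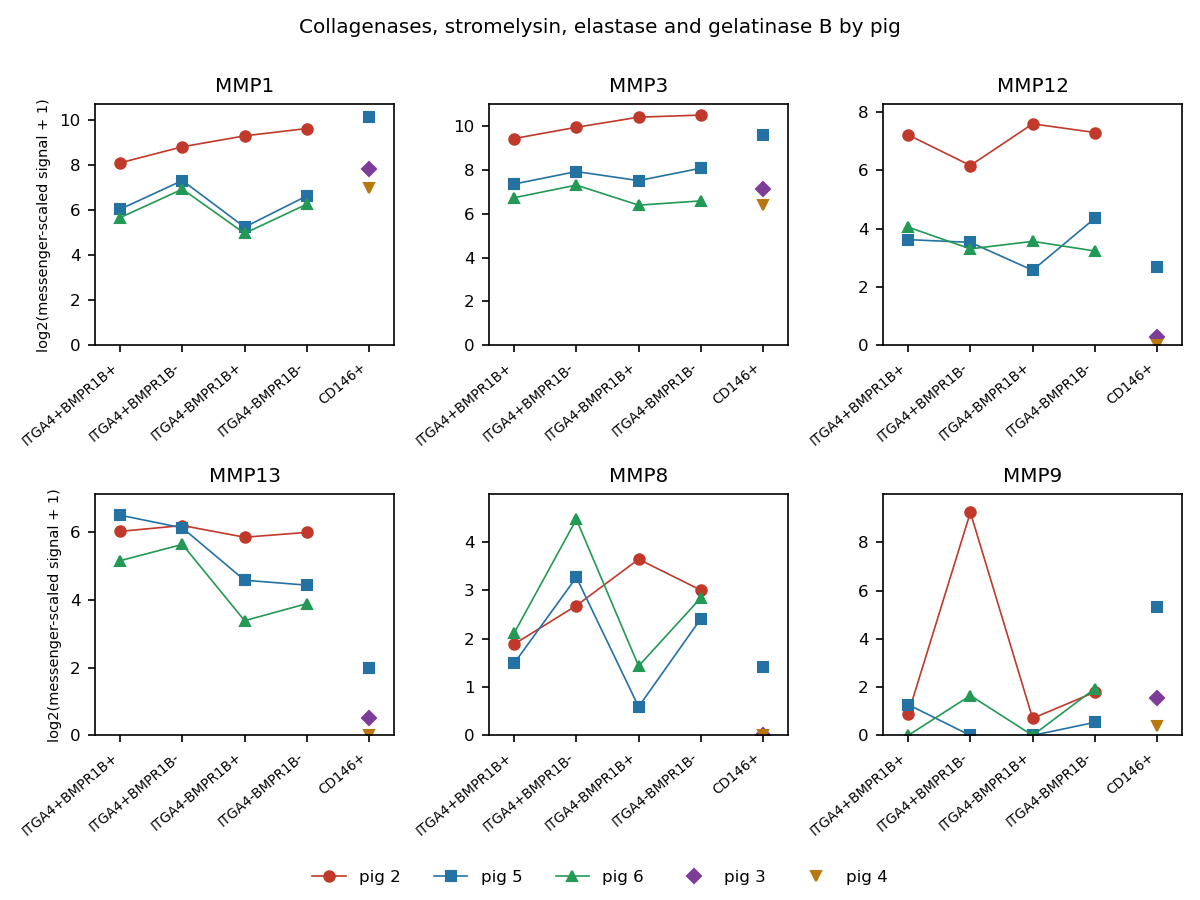
Level of 6 MMPs (y axis, log2(messenger-scaled signal + 1)) in the 4 chondrocyte populations, joined by pig, and in CD146+ cells (x axis), with 1 point per library. Pig 2 lies above pigs 5 and 6 in every population for MMP1, MMP3 and MMP12, MMP13 is low in all CD146+ libraries, and MMP9 is high in the ITGA4+BMPR1B- library of pig 2.

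MMP1, MMP3, MMP8, MMP12, MMP13, MMP7, MMP20 and MMP27 form a run of 8 neighbouring genes in the RefSeq annotation of the pig assembly Sscrofa11.1, with no other protein-coding gene between them. The neighbours did not share 1 pattern. In pig 2 MMP13 was at 56.6 to 72.2, within the range of pigs 5 and 6 (9.46 to 89.5), and MMP8 was at 2.70 to 11.48. MMP20 and MMP27 were at or below 0.564 in all 15 libraries, and MMP7 (matrilysin) reached 3.35 at most.

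Of the gelatinases, which cut denatured collagen and type IV collagen, MMP2 was tested and MMP9 was not. MMP2 (gelatinase A) was at 45.5 to 136 in chondrocytes (median 88.6) and at 994, 428 and 564 in CD146+ cells. The groups did not overlap, with a difference of -2.92 ± 0.32 (adjusted p = 0.00144). With values as deposited it was -1.50 and was not called (adjusted p = 0.209). MMP9 (gelatinase B), a protease stored in neutrophil granules, was below the filter. It was at 603 in the ITGA4+BMPR1B- library of pig 2 and at 39.4 in the CD146+ library of pig 5, and at 0 to 2.84 in the other 13 libraries. In the same ITGA4+BMPR1B- library ADAM8, a sheddase of leukocytes, was at 14.1 against 0 to 3.04 elsewhere, and ADAM28 was at 2.26 against 0 to 0.109 (both chosen after their values were seen). That library had the highest summed level of the 10 macrophage markers found, 890.1 against 80.5 to 473 in the others, and of the 7 neutrophil markers found, 375 against 0 to 125. Of these markers 9 of 10 and 5 of 7 were highest in that library, the exceptions being CD14, S100A9 and ELANE. S100A12 was at 141 there and at most 2.70 elsewhere, C1QA at 75.8 against at most 9.85, and PTPRC, which encodes CD45, at 13.5 against at most 1.62. The part of such cells in the MMP9 value was not tested.

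Membrane-bound and other MMPs had differences in both directions. MMP15 passed the filter through CD146+ libraries alone and MMP16 through chondrocyte libraries alone, so the calls of these 2 are descriptions. MMP14 (MT1-MMP), an activator of the MMP2 precursor, was at 115 to 427 in chondrocytes (median 180.2) and at 257, 604 and 407 in CD146+ cells. Its difference of -1.03 ± 0.40 was not called (adjusted p = 0.0959). The MMP14 difference was -1.47 with the pig as a block, and 0.0021 with values as deposited. MMP15 (MT2-MMP) was at 0 to 0.856 in chondrocytes (median 0.519) and at 12.8, 24.7 and 8.08 in CD146+ cells, a difference of -3.36 ± 0.43 (adjusted p = 0.00229). MMP16 (MT3-MMP) went the other way. It was at 4.24 to 11.99 in chondrocytes (median 8.37) and at 0.451, 0.143 and 0.484 in CD146+ cells, a difference of 2.76 ± 0.29 (adjusted p = 0.00118), and neither MMP15 nor MMP16 overlapped between groups. MMP11 (stromelysin 3) was at 1.83 to 18.0 in chondrocytes (median 4.33) and at 31.4, 14.8 and 23.7 in CD146+ cells, a difference of -2.01 ± 0.35 (adjusted p = 0.00754), with 1 overlap of the ranges, in the ITGA4+BMPR1B+ library of pig 5. The low MMP17, MMP19 and MMP25 reached at most 4.89.

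The sheddases ADAM10 and ADAM17 were lower in chondrocytes than in CD146+ cells. ADAM10, which cuts Notch receptors and cadherins, was at 7.47 to 19.4 in chondrocytes (median 11.3) and at 108, 112 and 97.9 in CD146+ cells, a difference of -3.06 ± 0.16 (adjusted p = 0.000113) with no overlap. With values as deposited the difference was -0.84 and was not called (adjusted p = 0.276). ADAM17, which releases TNF, was at 21.4 to 33.1 in chondrocytes (median 28.5) and at 52.3, 47.4 and 39.9 in CD146+ cells, a smaller difference of -0.71 ± 0.18 (adjusted p = 0.0269). This call was lost in 5 of 6 fits without 1 pig mean or library. The ADAM17 difference was -0.45 with the pig as a block, and 0.25 with values as deposited (adjusted p = 0.698). ADAM19 was at 1.02 to 12.7 in chondrocytes (median 3.17), with the 4 highest values in pig 2, and at 26.3, 24.6 and 14.1 in CD146+ cells, a difference of -2.13 ± 0.52 (adjusted p = 0.0235) that was lost in 4 of 6 such fits. ADAM9 was at 16.0 to 46.6 and at 25.6, 39.5 and 29.2, a difference of -0.09 ± 0.23 (adjusted p = 0.8).

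**Figure D4:**
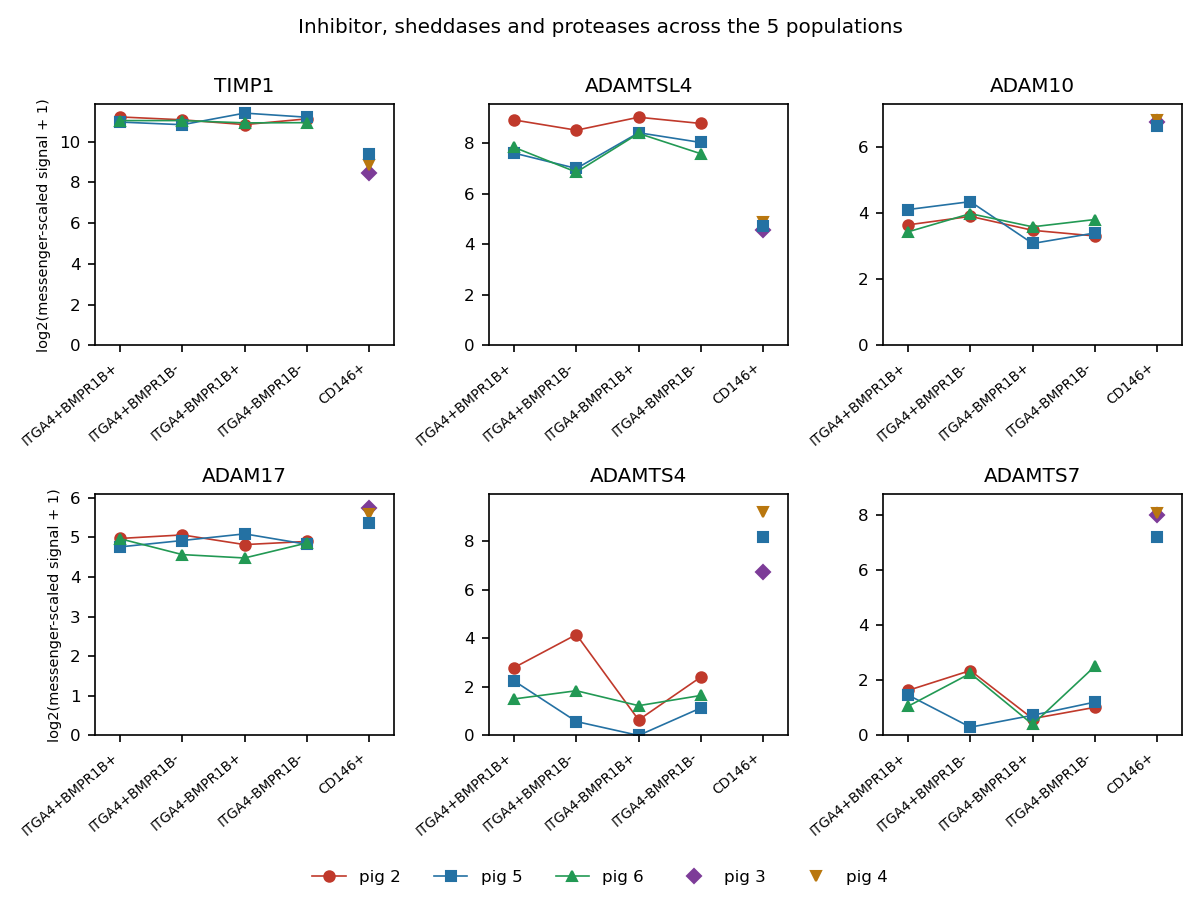
Level of TIMP1, ADAMTSL4, ADAM10, ADAM17, ADAMTS4 and ADAMTS7 (y axis, log2(messenger-scaled signal + 1)) in the 4 chondrocyte populations, joined by pig, and in CD146+ cells (x axis), with 1 point per library. TIMP1 and ADAM17 are nearly level across the 12 chondrocyte libraries, and ADAMTS4 and ADAMTS7 rise steeply from chondrocytes to CD146+ cells.

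ADAM33 was uneven among chondrocytes. It was at 0.794 to 27.8 (median 6.30), and at 8.57, 3.00 and 0.659 in CD146+ cells. The difference was 0.96 ± 0.76 (adjusted p = 0.373), and 1.92 with the pig as a block. The other 10 ADAM entries were below the filter. ADAM12 was above 0 in all 15 libraries but at most 3.13. ADAM21 and ADAM29 were above 0 in 2 libraries each, and highest in the ITGA4+BMPR1B+ library of pig 5, at 5.60 and 7.14.

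Of the aggrecanases, ADAMTS4 was lower in chondrocytes than in CD146+ cells and ADAMTS5 was not called. ADAMTS4 passed the filter through its CD146+ libraries, so its call is a description. ADAMTS4 (aggrecanase 1) was at 0 to 16.8 in chondrocytes (median 1.98) and at 104, 578 and 284 in CD146+ cells. The difference was -6.34 ± 0.68 (adjusted p = 0.00131), 80.8-fold on the scale with 1 added. ADAMTS5 (aggrecanase 2) was at 2.85 to 17.1 in chondrocytes (median 7.55) and at 6.38, 49.96 and 55.7 in the CD146+ libraries of pigs 3, 4 and 5. The pig 3 library lay within the chondrocyte range, and the difference of -1.82 ± 0.79 was not called (adjusted p = 0.124). Without that library it was -2.77 (adjusted p = 0.00191). With the pig as a block over all 15 libraries, where only pig 5 links the cell types, it was -2.76.

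ADAMTS1, a protease that cuts aggrecan and versican, was also higher in CD146+ cells in both of its entries. ENSSSCG00000012026 was at 0.00196 to 61.9 in chondrocytes (median 23.9) and at 110.3, 890.0 and 386 in CD146+ cells, a difference of -4.43 ± 0.77 (adjusted p = 0.00729). ENSSSCG00000029488 was at 1.001 to 51.9 (median 17.6) and at 133, 921 and 289.7, a difference of -4.46 ± 0.81 (adjusted p = 0.0087). Entries with 1 symbol may share reads that the quantification divides between them, so single values of either entry are uncertain.

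ADAMTS7, which cuts COMP, and ADAMTS9 passed the filter only through CD146+ cells. ADAMTS7 was at 0.230 to 4.69 in chondrocytes (median 1.20) and at 257, 268 and 147 in CD146+ cells, the lowest difference of the 27 entries at -6.47 ± 0.31 (adjusted p = 9.26e-05). ADAMTS9 was at 0.137 to 2.23 (median 0.326) and at 8.24, 55.4 and 28.5, a difference of -4.06 ± 0.65 (adjusted p = 0.00544).

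By contrast, ADAMTS10, which is tied to fibrillin microfibrils, and ADAMTS6 were higher in chondrocytes. ADAMTS10 was at 18.5 to 69.5 (median 50.4) against 12.3, 10.1 and 19.9 in CD146+ cells, a difference of 1.66 ± 0.35 (adjusted p = 0.0137). For ADAMTS10 it was 0.60 with the pig as a block, and 1.14 (adjusted p = 0.0944) with values as deposited. Its lowest chondrocyte libraries were those of the ITGA4+ cells of pig 5, at 18.5 and 20.9. ADAMTS6, which passed the filter through chondrocyte libraries alone, was at 2.78 to 8.71 (median 4.42) against 0.350, 1.77 and 0.402. Its difference was 1.69 ± 0.41 (adjusted p = 0.0226), a call kept in 2 of 6 fits without 1 pig mean or library. ADAMTS2, which trims the amino end of procollagens, was below the filter, at 0.392 to 3.08 in chondrocytes and at 0.0620, 0.462 and 1.21 in CD146+ cells. The other 7 ADAMTS entries below the filter reached at most 3.12.

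Both ADAMTS-like entries tested, of the 4 listed, were higher in chondrocytes. ADAMTSL4, a fibrillin-binding protein, was at 115 to 521 in chondrocytes (median 297) and at 22.6, 28.4 and 25.6 in CD146+ cells, a difference of 3.36 ± 0.33 (adjusted p = 0.000972). ADAMTSL3, which passed the filter through chondrocyte libraries alone, was at 0.682 to 9.81 (median 4.59) and at 0.216, 0.0571 and 0.323. Its difference was 2.01 ± 0.35 (adjusted p = 0.00757), and 1.57 with the pig as a block. Neither overlapped between groups. ADAMTSL2 reached 4.04 and ADAMTSL5 1.36 at most.

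TIMP1 was high in chondrocytes, and steady there on the messenger scale. It was at 1811 to 2689 in the 12 chondrocyte libraries (median 2084) and at 354, 456 and 658 in CD146+ cells, a difference of 2.15 ± 0.26 (adjusted p = 0.00186) with no overlap. As deposited, TIMP1 was at 15.4 to 33.7 in the chondrocyte libraries of pig 2 and at 91.9 to 149 in those of pigs 5 and 6. TIMP2, which also takes part in the activation of MMP2 by MMP14, was at 33.6 to 163 in chondrocytes (median 81.7) and at 25.2, 13.6 and 20.3 in CD146+ cells, a difference of 1.96 ± 0.39 (adjusted p = 0.0114). TIMP3, the inhibitor of aggrecanases that binds to the matrix, was below the filter in both cell types, at 1.72 to 3.61 in chondrocytes and at 1.79, 1.93 and 1.81 in CD146+ cells. TIMP4 was above 0 in 1 library, the ITGA4+BMPR1B- cells of pig 6, at 0.343.

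Within the chondrocytes, the question was whether BMPR1B and ITGA4 mark cells with another set of proteases. Without the pig in the fit, limma called 0 of the 27 entries for BMPR1B (0.00865% of all genes), with 7 entries at an unadjusted p below 0.05 (9.67% of all genes). With the pig as a block it called 3 entries, all lower in BMPR1B+ cells, out of 1.90% of all genes called and 1.07% called lower. At an unadjusted p below 0.05 the block fit had 12 entries (17.7% of all genes). The median difference over the 27 entries was -0.38, and over all genes -0.01.

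The 3 entries were TIMP2, MMP2 and ADAMTS1. MMP2 was at 64.9, 45.5 and 57.9 in the ITGA4+BMPR1B+ libraries of pigs 2, 5 and 6, and at 109.8, 116 and 136 in ITGA4+BMPR1B-. In ITGA4- cells it was at 95.3, 63.6 and 55.1 with BMPR1B and at 102, 89.4 and 87.8 without. It was lower with BMPR1B in all 3 pigs, by 0.42, 0.91 and 0.94 on the log2 scale, and groups overlapped among ITGA4- cells only. The difference was -0.76 ± 0.14 with the block (adjusted p = 0.0362) and had an adjusted p of 0.124 without it.

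TIMP2 was at 33.6, 46.2 and 106 in ITGA4+BMPR1B+ and at 73.4, 99.7 and 163 in ITGA4+BMPR1B- libraries of pigs 2, 5 and 6. It was at 39.2, 73.2 and 95.8 in ITGA4-BMPR1B+ and at 62.6, 89.9 and 142 in ITGA4-BMPR1B- libraries. In each population the library of pig 6 was highest and that of pig 2 lowest, and within each pig both BMPR1B+ populations lay below both BMPR1B- populations. The difference was -0.72 ± 0.11 with the block (adjusted p = 0.0267) and had an adjusted p of 0.555 without it. ADAMTS1 as ENSSSCG00000012026 was at 33.0, 27.3 and 10.6 in ITGA4+BMPR1B+ and at 61.9, 27.7 and 40.6 in ITGA4+BMPR1B- cells. It was at 4.07, 0.00196 and 3.50 in ITGA4-BMPR1B+ and at 40.4, 12.2 and 20.4 in ITGA4-BMPR1B- cells, so that the ITGA4-BMPR1B+ libraries lay below all others. The difference was -1.96 ± 0.37 with the block (adjusted p = 0.042) and had an adjusted p of 0.195 without it. For ENSSSCG00000029488 the difference was -0.83 ± 0.48 (adjusted p = 0.419 with the block).

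These 3 calls rested on all 12 libraries together. When each of the 12 was left out of the block fit in turn, TIMP2 passed the threshold in 3 fits, MMP2 in 2 and ADAMTS1 in 1, with differences of -0.81 to -0.66 for TIMP2, -0.86 to -0.66 for MMP2 and -2.28 to -1.67 for ADAMTS1. In 8 of these fits 0 entries were called, namely without any one of the libraries of ITGA4+BMPR1B+ pig 2, ITGA4+BMPR1B- pigs 5 and 6, ITGA4-BMPR1B+ pigs 5 and 6 or the 3 ITGA4-BMPR1B- pigs. In the other 4 fits 1 to 5 were called. Without pig 2, 1 entry was called, MMP1 at -1.30 (adjusted p = 0.0444), and without pig 5 or pig 6 there were 0. The share of all genes called in each left-out fit is not given, so these counts describe the entries alone. With values as deposited and the block, 0 of 18 entries and 0 of 7049 genes were called.

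The other 9 entries at an unadjusted p below 0.05 in the block fit had the same direction in the 3 pigs and passed the adjusted threshold in neither fit. ADAM33 was at 2.53, 3.54 and 17.2 in ITGA4+BMPR1B+ and at 6.72, 19.0 and 27.8 in ITGA4+BMPR1B- cells of pigs 2, 5 and 6, and at 2.18, 0.794 and 5.89 in ITGA4-BMPR1B+ and 3.66, 8.57 and 20.3 in ITGA4-BMPR1B- cells. Its difference of -1.42 ± 0.29 had an adjusted p of 0.0508 with the block. MMP1 differed by -1.04 ± 0.32 (adjusted p = 0.15), ADAMTSL3 by -1.17 ± 0.30 (adjusted p = 0.0961), ADAM9 by -0.57 ± 0.18 (adjusted p = 0.154), MMP8 by -1.25 ± 0.48 (adjusted p = 0.225) and MMP14 by -0.39 ± 0.14 (adjusted p = 0.196). Values above 0 were found for MMP11 (0.73 ± 0.18, adjusted p = 0.0867), ADAMTSL4 (0.57 ± 0.15, adjusted p = 0.0961) and ADAM19 (0.39 ± 0.16, adjusted p = 0.257). TIMP1 was at 1817 to 2689 in BMPR1B+ and at 1811 to 2337 in BMPR1B- libraries.

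**Figure D5:**
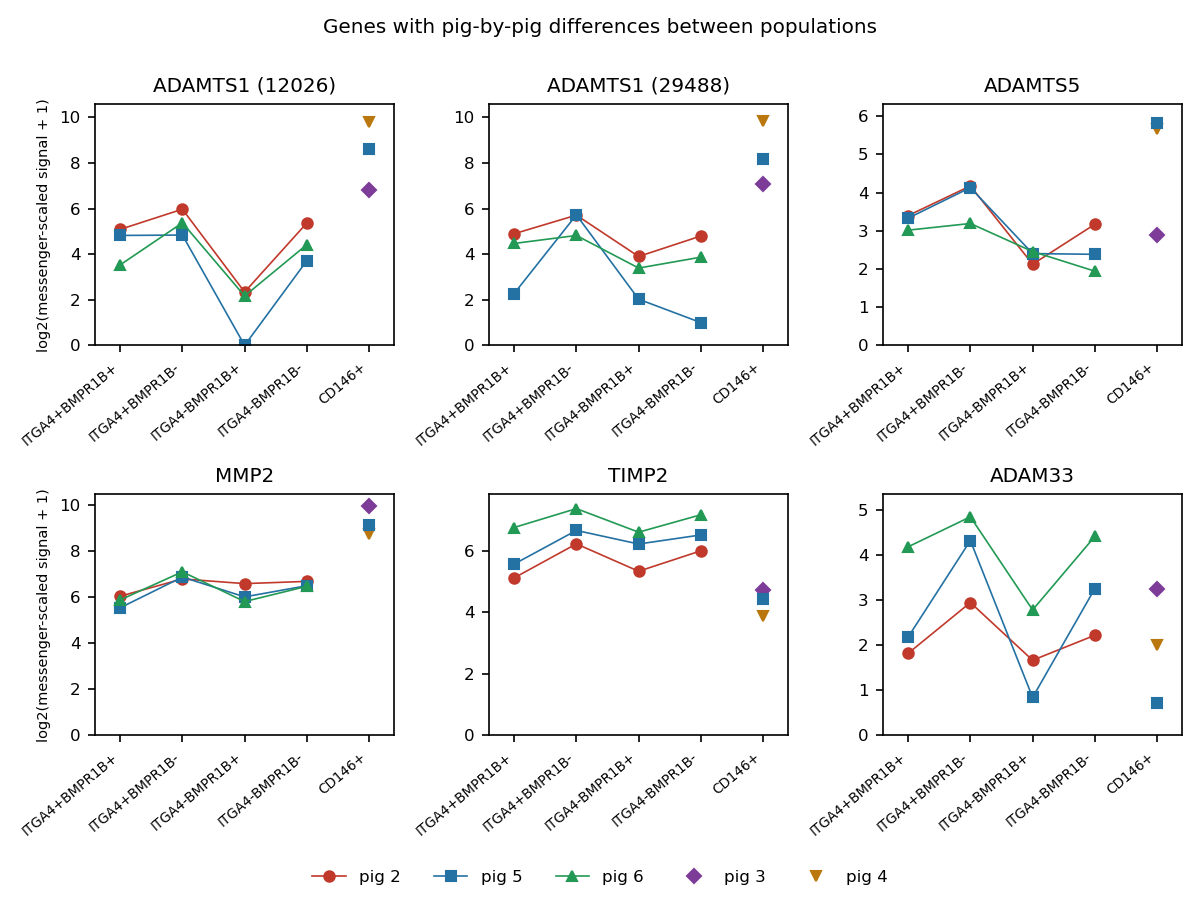
Level of both ADAMTS1 entries, ADAMTS5, MMP2, TIMP2 and ADAM33 (y axis, log2(messenger-scaled signal + 1)) in the 4 chondrocyte populations, joined by pig, and in CD146+ cells (x axis), with 1 point per library. In all 3 pigs MMP2 and TIMP2 are lower in both BMPR1B+ populations than in ITGA4+BMPR1B- cells, and the ADAMTS1 entry ENSSSCG00000012026 is lowest in ITGA4-BMPR1B+ cells.

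For ITGA4, limma called 0 of the 27 entries with or without the block (0.00865% of all genes in each). At an unadjusted p below 0.05 there were 6 entries without the block (5.56% of all genes) and 9 with it (11.4%). The values farthest above 0 were those of both ADAMTS1 entries, MMP13 and ADAMTS5. ADAMTS5 was at 9.55, 9.07 and 7.10 in ITGA4+BMPR1B+ and at 17.1, 16.5 and 8.14 in ITGA4+BMPR1B- cells of pigs 2, 5 and 6, and at 3.37, 4.29 and 4.49 in ITGA4-BMPR1B+ and 8.01, 4.22 and 2.85 in ITGA4-BMPR1B- cells. The ITGA4+ range was 7.10 to 17.1 and the ITGA4- range 2.85 to 8.01, with 1 ITGA4- library, that of ITGA4-BMPR1B- cells of pig 2, in the overlap. The difference was 1.13 ± 0.22 with the block, with a value above 0 in 3 of 3 pigs and an adjusted p of 0.175. ADAMTS1 differed by 1.94 ± 0.37 as ENSSSCG00000012026 (adjusted p = 0.175) and by 1.49 ± 0.48 as ENSSSCG00000029488 (adjusted p = 0.341), and ADAMTS4 by 1.01 ± 0.45 (adjusted p = 0.45).

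MMP13 was at 64.0, 89.5 and 34.7 in ITGA4+BMPR1B+ and at 72.2, 68.8 and 48.8 in ITGA4+BMPR1B- cells of pigs 2, 5 and 6. In ITGA4-BMPR1B+ it was at 56.6, 22.9 and 9.46, and in ITGA4-BMPR1B- cells at 62.7, 20.6 and 13.8. The gap was wide in pigs 5 and 6 (1.80 and 1.76) and small in pig 2 (0.19), and the mean difference of 1.25 ± 0.29 had an adjusted p of 0.236 with the block. MMP11 (0.78 ± 0.18, adjusted p = 0.236), ADAM33 (0.85 ± 0.29, adjusted p = 0.355) and ADAM10 (0.46 ± 0.18, adjusted p = 0.394) were also above 0 in 3 of 3 pigs, and MMP16 (-0.55 ± 0.18, adjusted p = 0.341) and ADAMTSL4 (-0.58 ± 0.15, adjusted p = 0.249) below 0 in 3 of 3. With values as deposited and the block, 11 of 18 entries were called higher in ITGA4+ cells, with 3507 of 7049 genes called and a median of 0.32 over all genes, against 0 on the messenger scale. ITGA4+ libraries had structural RNA at 43.9% to 77.5% of the signal and ITGA4- libraries at 68.7% to 96.2%.

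Whether the effect of BMPR1B differed between ITGA4+ and ITGA4- cells was tested as an interaction. limma called 0 of the 27 entries with or without the block (0.00865% of all genes in each). At an unadjusted p below 0.05 there were 0 entries without the block (1.89% of all genes) and 2 with it (3.78%), MMP2 and ADAMTS1. Over the settings run, 18 of the 27 entries changed sign in this interaction. The MMP2 effect of BMPR1B was -1.10 in ITGA4+ and -0.41 in ITGA4- cells, a difference of -0.69 ± 0.27 (adjusted p = 1 in limma). For ADAMTS1 as ENSSSCG00000012026 it was -0.92 in ITGA4+ and -3.00 in ITGA4- cells, a difference of 2.08 ± 0.73 (adjusted p = 1 in limma), while the difference for ENSSSCG00000029488 was -1.42 ± 0.95.

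Other genes of matrix breakdown, grouped by role, also split between chondrocytes and CD146+ cells, where 16.4% of all genes were called higher and 16.2% lower. In the plasminogen system, which can activate MMP precursors, 3 of 7 genes tested were higher in chondrocytes and 2 lower. The protease inhibitor SERPINE2 was higher by 6.16, and both plasminogen activators were lower, PLAU by -4.96 and PLAT by -4.78. Of 16 other proteases and inhibitors 4 were higher, among them HTRA3 (3.84) and FAP (3.46), and 5 lower, among them PRSS23 (-4.19) and CTSB (-3.21), which encodes the lysosomal cathepsin B. Of 14 regulators and receptors 7 were higher, among them RECK, a membrane inhibitor of MMPs (2.35), and 3 lower, among them the broad protease trap A2M (-3.49). Of 7 other metalloproteinases and their helpers 5 were higher, among them BMP1, which trims procollagens (1.82), and PCOLCE, its enhancer (3.32), and 1 lower, ECE1 (-4.70). Of 13 substrates 9 were higher, among them COL2A1 (10.33), ACAN (9.68) and FN1 (6.66), and 1 lower, the basement membrane collagen COL4A1 (-4.25). Of 15 inducers 4 were higher and 4 lower, among them IL6 (-3.75). The medians were 0.07 for the plasminogen system, 0.34 for proteases and inhibitors, 0.99 for regulators, 2.00 for other metalloproteinases, 5.23 for substrates and -0.18 for inducers, beside -0.01 for all genes.

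In the comparison of BMPR1B with the pig as a block, where 1.90% of all genes were called and 1.07% lower, 4 of the 16 other proteases and inhibitors were called, all lower in BMPR1B+ cells. Without the block limma called 0 genes of the 6 role lists, with CTSK and ANPEP nearest to the threshold (adjusted p = 0.0504 for each). The 4 called with the block were CTSK, the cathepsin that cuts collagen (-1.06), CTSA (-0.98), PRSS23 (-1.07) and the cysteine protease inhibitor CST3 (-0.96). In the plasminogen system 1 of 7 genes tested was higher in BMPR1B+ cells and 1 lower, PLAU (-1.49). Of 13 substrates 2 were higher, MATN3 (1.40) and FN1 (1.08). Of 7 other metalloproteinases and their helpers 1 was higher and 1 lower. Among 15 inducers 1 was higher and 1 lower, and among 14 regulators and receptors 1 was lower. For ITGA4 none of the 6 role lists had a gene called by limma, with or without the block.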

How the data were processed

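Total RNA of 15 libraries from sorted pig cells was made into paired-end libraries (NuGen Ovation SoLo). The values are a signal per Ensembl gene that the authors deposited, made with STAR and the expectation maximisation of Partek. Their versions, and how the signal was normalized, were not given in the sources at hand. The lowest value, 1e-04, was taken as 0. Depth in reads was not examined. The lowest signal above that lowest value was 0.968 (median) in 352 small nucleolar RNA rows and 0.0345 in 14381 messenger rows.

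Structural RNA (1122 rows) and 13 mitochondrial genes were removed. Scale factors were median ratios against a geometric mean reference, taken over 8958 named genes. The filter was a value above 5 in 3 or more libraries, and limma 3.58.1 under R 4.3.3 gave the tests (trended prior, log2(value + 1), Benjamini-Hochberg, threshold 0.05). The fit against CD146+ cells and the BMPR1B fit without the pig as a block were tested on simulated data with no pig effect. The block fit was not tested in this way. Chondrocytes entered as 1 mean per pig against CD146+ libraries, and the populations as 4 groups of 3 libraries. The pig as a block was an alternative, and the animals are shared: over 18 pairs of libraries of 1 pig, deviations from population means correlated at 0.120 to 0.359, over 48 pairs of different pigs at -0.661 to 0.0474, and 12 of 12 libraries correlated best with the same pig. Subtracting a population mean by itself pushes pairs of different pigs within that population below 0. The low end of that range thus says nothing about shared animals. No 2 libraries were identical.

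The genes and lists were chosen with earlier results of these data known. Named with values were MMP1, MMP2, MMP3, MMP9, MMP13, MMP14, ADAM10, ADAM17, ADAMTS1, ADAMTS2, ADAMTS4, ADAMTS5, the TIMPs and every entry past the threshold in a main or block fit. A further 5 identifiers with a family name only in the reference list were left out. Alternatives were the deposited values, the messenger total alone, pseudocounts of 0.1 and 5, no filter or a filter of 10, other units of replication, and left-out libraries. Leaving libraries out of the block fits was chosen after seeing the data. A result for 1 gene of the role lists is not reported here. No sequences were printed, as no sequence table was at hand.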

Additional observations from a re-analysis of the deposited data

How the results depend on the processing

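Between chondrocytes and CD146+ cells 20 entries were called, and 15 to 23 were under the alternatives other than the deposited values. With the deposited values 8 of 18 entries and 691 of 7049 genes were called, and the median over all genes was 0.59. The messenger total alone moved the median over all genes to -0.30 here and to -0.13 for BMPR1B. The count was 15 to 20 when 1 pig mean or library was left out. For the left-out fits and the alternatives other than the deposited values, the share of all genes called is not given. Those counts describe the entries alone. The sign turned in at least 1 of the fits run for 5 of the 27 entries here, 6 for BMPR1B, 14 for ITGA4 and 18 for the interaction, and in main fits ADAM17 was the 1 called entry among them. Against CD146+ cells, the differences as deposited were 0.0021 for MMP14, 0.25 for ADAM17 and 0.50 for ADAM9. MMP3 was at -1.87 with the pig as a replicate block and at -0.46 to 1.42 with 1 pig mean or library left out, and ADAM9 at -0.22 to 0.086. ADAM9 was at 0.34 when ITGA4+BMPR1B- cells stood alone and at 0.062 when those with neither protein did, and ADAM33 was at -0.23 with ITGA4-BMPR1B+ cells alone.

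For BMPR1B 3 entries were called with the block against 0 without it, 0 with the block on deposited values, 0 to 1 with 1 pig left out and 0 to 5 with 1 library left out. The shares of all genes called in the left-out fits are not given. None of the entries called with the block turned. ADAM17 was at 0.040 as deposited, with or without the block, and on the messenger total alone MMP16 was at -0.094 and TIMP1 at -0.10. With libraries or pigs left out, with or without the block, the ranges were -0.090 to 0.071 for ADAM17, -0.12 to 0.24 for MMP16, -0.069 to 0.11 for TIMP1, -0.99 to 0.11 for MMP3, -0.63 to 0.71 for MMP12 and -0.44 to 0.17 for MMP13.

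For ITGA4 the count was 0 except for 11 with the block on deposited values. As deposited, with or without the block, MMP14 was at 0.35, ADAMTSL4 at 0.028, TIMP1 at 0.58, MMP3 at 0.45, MMP12 at 0.20, TIMP2 at 0.39 and ADAMTS10 at 0.066, and on the messenger total alone TIMP1 was at 0.041 and TIMP2 at 0.060. Left-out ranges were -0.15 to 0.14 for TIMP1, -0.58 to 0.44 for MMP3, -0.68 to 0.63 for MMP12, -0.26 to 0.15 for TIMP2 and -0.72 to 0.12 for ADAMTS10. They were -0.073 to 0.31 for MMP15, -0.14 to 0.15 for MMP2, -0.032 to 0.13 for ADAM17, -0.24 to 0.84 for MMP1, -0.035 to 0.27 for ADAM9, -0.56 to 0.046 for ADAM19 and -0.080 to 1.01 for MMP8. For the interaction the count was 0 in every fit run, and ADAMTS1 as ENSSSCG00000029488 was at -2.21 to 0.10. The causes were not tested.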
